A study of Homo sapiens with 6 samples.

Results

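The MNX1 locus on the long arm of chromosome 7 was described from reduced representation bisulfite sequencing, which measures methylation at CpG cytosines in CpG-rich fragments. Its members are the rows of the authors' deposited region table (hg38) that overlap the RefSeq span of MNX1 (157004854 to 157010663) or lie within 25 kb of it. The rule found 15 of the 35130 regions of the table. The locus was selected on this very contrast, for its number of regions with a low authors' q and a large difference, so every difference below is a description of the authors' values and none is tested anew. All differences, p-values and q-values of regions are those of the authors' deposited table.

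The knockout group comprised 3 libraries of M07e cells with a CRISPR knockout of DNMT3B, an enzyme that places new DNA methylation, and the control group comprised 3 libraries of M07e cells labelled WT. M07e is a cell line of acute megakaryoblastic leukemia, and per the labels' protocols it was grown with GM-CSF. The labels do not say whether the knockout was a clone or a pool, or whether libraries came from separate cultures. The control column of the table is named M07e_WT, while the other is named M07e_3883, which no label uses. It was read as the knockout because the study has no other genotype, and every direction rests on that reading.

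MNX1 encodes HB9, a homeodomain transcription factor that sets motor neuron identity and is needed for the dorsal pancreas in mouse. In humans its mutation causes Currarino syndrome, a malformation of the sacrum, and its locus is joined to ETV6 by a translocation found in acute myeloid leukemia of infants. Methylation of CpGs at a gene's start usually accompanies silence of that start, whereas CpG-rich starts of most genes are unmethylated.

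The gene is read from the minus strand, so its annotated start is its upper end, at 157010663. MNX1-AS1, a long noncoding RNA gene, is read the other way from 157010857, which lies 194 bases upstream of the MNX1 start. A second annotated start of MNX1 lies 1228 bases into the gene, at 157009435. MNX1-AS2, another noncoding RNA gene, starts at 157006307 within MNX1. No other annotated gene overlaps the window. Of the 15 regions, 4 overlapped the span of MNX1, and 0 overlapped MNX1-AS1 or MNX1-AS2, so the levels within those RNA genes were not analysed here.

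The sequence at the start is shown because the region with the most sites lies across it. The promoter below is from RefSeq (GRCh38.p14, the build of the files), chr7:157010614-157010913, minus strand, 250 bases before to 50 after the start, with the part inside the measured region in capitals. The second line gives that part alone, chr7:157010614-157010725, with each CpG in capitals.
MNX1 promoter: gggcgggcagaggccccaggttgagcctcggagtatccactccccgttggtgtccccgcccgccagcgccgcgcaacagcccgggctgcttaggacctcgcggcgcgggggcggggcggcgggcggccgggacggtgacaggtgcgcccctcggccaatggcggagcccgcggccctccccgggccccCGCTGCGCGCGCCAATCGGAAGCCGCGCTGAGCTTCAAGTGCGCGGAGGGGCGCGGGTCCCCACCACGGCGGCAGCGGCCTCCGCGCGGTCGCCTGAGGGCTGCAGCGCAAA
measured part: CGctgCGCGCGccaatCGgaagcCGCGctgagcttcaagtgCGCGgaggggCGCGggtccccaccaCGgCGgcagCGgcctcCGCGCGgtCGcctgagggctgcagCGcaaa
The 300 bases hold 44 CpGs, of which 19 lie in the 112 measured bases and 25 upstream of them. The median over 35116 promoters of this length was 14 CpGs, and 4.19% held at least 44. The nearest CCGG, the sequence that MspI cuts, ends 5 bases before the measured part, which itself holds 0. Matches to other motifs were counted on both strands with overlaps allowed. CCAAT, present in 34.6% of promoters, matched 2 times, once inside the measured part. GGGCGG, present in 45.0%, matched 5 times, all upstream of it. TATAAA (11.5% of promoters) and CACGTG (7.26%) had 0 matches in this window. These matches describe letters only.

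The measured region across the start was far less methylated in the knockout. Over its 44 sites and 170 bases (157010555 to 157010724) the authors' mean level was 25.5% in the knockout and 77.0% in the control. In the authors' deposited table this is a difference of -51.5 points, with q = 1.4e-11. Here a region is called when that q is under 0.01 and the absolute difference is at least 25 points, which holds for 6.74% of all regions. The region reaches to 133 bases from the MNX1-AS1 start without covering it. Sites are cytosines counted on each strand, not CpG pairs: the 118 bases of this region whose sequence is known hold 20 CpG pairs and 39 such cytosines, so at most 39 of the 44 sites fall there and the others lie in the part that extends into the gene.

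**Figure D1:**
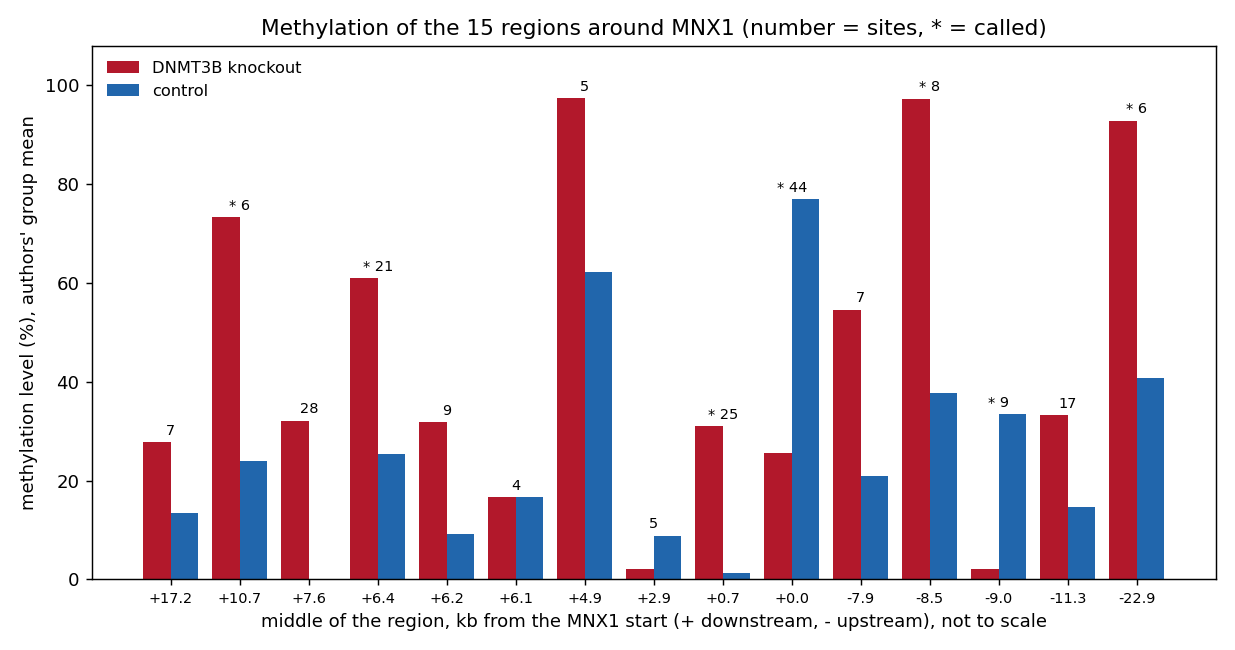
Authors' mean methylation level (%) of the 15 regions in knockout (red, left bar) and control (blue, right bar), in the order of chromosome 7, labelled with the distance of the region's middle from the MNX1 start and, above the bars, the number of sites and a star where called. The region across the start is at 25.5% in the knockout and 77.0% in the control, while most others are higher in the knockout; the control bar of the 28-site region is 0.

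Around that start the other regions mostly had the opposite sign, as did most of the table. By the deposited difference, 12 of the 15 regions were higher in the knockout and 3 lower, a share of 80.0% higher against 68.4% of all regions. The 12 include a 4-site region whose listed group means are equal. By the call rule, 7 were called, 5 of them higher and 2 lower, which is 46.7% against 6.74% of all regions (4.57% called higher and 2.17% called lower). The share is read as nothing more than the choice of the locus, since this contrast chose it. Under other rules the members called, and the share of all regions called, were 4 (3.42%) at 40 points or more, 7 (8.6%) at 10 points or more, 3 (3.31%) at q under 0.001 and 7 (10.5%) at q under 0.05. With Benjamini-Hochberg adjustment over all regions they were 3 (4.12%) for the Kolmogorov-Smirnov p and 8 (8.7%) for the Mann-Whitney p. Over the 15 regions the mean level was 45.3% in the knockout and 25.7% in the control, and the deposited differences averaged 20.5 points with an SD among regions of 30.3.

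Inside the gene, a second CpG-rich region differed in the other direction from the start. It covers 25 sites (157009858 to 157010057), 606 bases into the gene, between the 2 annotated starts and 423 bases upstream of the second one. Its authors' mean was 31.0% in the knockout and 1.33% in the control, and it was called higher (difference 29.7 points, q = 0.00874 in the authors' deposited table). This q lies just under the threshold. Only 497 bases separate it from the region across the start. The knockout levels of these 2 regions were close to each other (31.0% and 25.5%) and the control levels far apart (1.33% and 77.0%). The 31.0% lies in the range, described below, where knockout means of the whole table pile up. Its part in this closeness was not tested.

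Toward the end of the gene levels were measured over few sites. A region of 5 sites (157005778 to 157005834) was at 97.4% in the knockout and 62.2% in the control, but with q = 0.0746 in the authors' deposited table it was not called. It had the highest knockout level of the window. Another of 5 sites (157007640 to 157007820) was low in both groups, at 2.18% in the knockout and 8.83% in the control, and was not called (q = 1). Neither lies in MNX1-AS2, which sits between them.

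Downstream of the gene all 6 regions had a positive deposited difference and 2 were called, both higher. A region of 21 sites (157004142 to 157004301), 553 bases past the gene's end, was at 61.0% in the knockout and 25.4% in the control (q = 0.00816 in the authors' deposited table). A shorter one of 6 sites (156999932 to 156999952), 4902 bases past the end, was at 73.3% in the knockout and 24.0% in the control, with q = 1.11e-07. The second of these had the lowest q of the called higher regions. Between the 2 called regions lies one of 28 sites (157002898 to 157003232) at 32.1% in the knockout and exactly 0% in the control. The authors' 2 tests part there, with a Mann-Whitney p of 0.000191 and a Kolmogorov-Smirnov p of 1 in their deposited table, and it was not called. The lack of a call is not particular to this region, as other regions with a mean of exactly 0, described below, also lacked one. Between the 21-site region and the gene's end lay a 9-site one at 31.8% in the knockout and 9.26% in the control (q = 0.652) and a 4-site one listed at 16.7% in both groups. For that last region the authors' deposited table gives a difference of 14.3 points although its 2 means are equal. In 274 regions of the table the deposited difference departs by more than 0.01 points from that of the 2 means. The most distant downstream region (7 sites, 11307 bases past the end) was at 27.8% in the knockout and 13.5% in the control (q = 1).

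Upstream of the start no region was listed for 7817 bases beyond the start region, a stretch that holds the whole of MNX1-AS1. Then 3 short regions followed within 1132 bases. The first, of 7 sites, was at 54.6% in the knockout and 21.0% in the control and was not called (q = 0.153). The second, of 8 sites (157019128 to 157019145), reached 97.3% in the knockout, against 37.7% in the control, and was called higher with q = 8.93e-05 in the authors' deposited table. Its 59.6 points were the largest difference in the window. Only 460 bases further, 9 sites (157019606 to 157019673) were at 2.17% in the knockout and 33.4% in the control, and this was the other called lower region of the window (q = 0.00333). These last 2 neighbours lay at opposite ends of the scale in the knockout (97.3% and 2.17%) and close together in the control (37.7% and 33.4%).

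Farther upstream, 17 sites at 157021858 to 157022128 were at 33.2% in the knockout and 14.7% in the control and were not called (q = 1). The last member, of 6 sites (157033486 to 157033550, 22823 bases upstream), was at 92.9% in the knockout and 40.7% in the control and was called higher (q = 0.00236 in the authors' deposited table). Just outside the 25 kb limit, a 5-site region 29470 bases upstream was at 31.7% in the knockout and 51.3% in the control (q = 0.953). Another, 30411 bases upstream, was at 32.4% in the knockout and 76.0% in the control (q = 0.203). On the other side the nearest region outside the window was 56010 bases past the gene's end, at 65.2% in the knockout and 24.1% in the control, and was called higher (q = 0.00178).

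**Figure D2:**
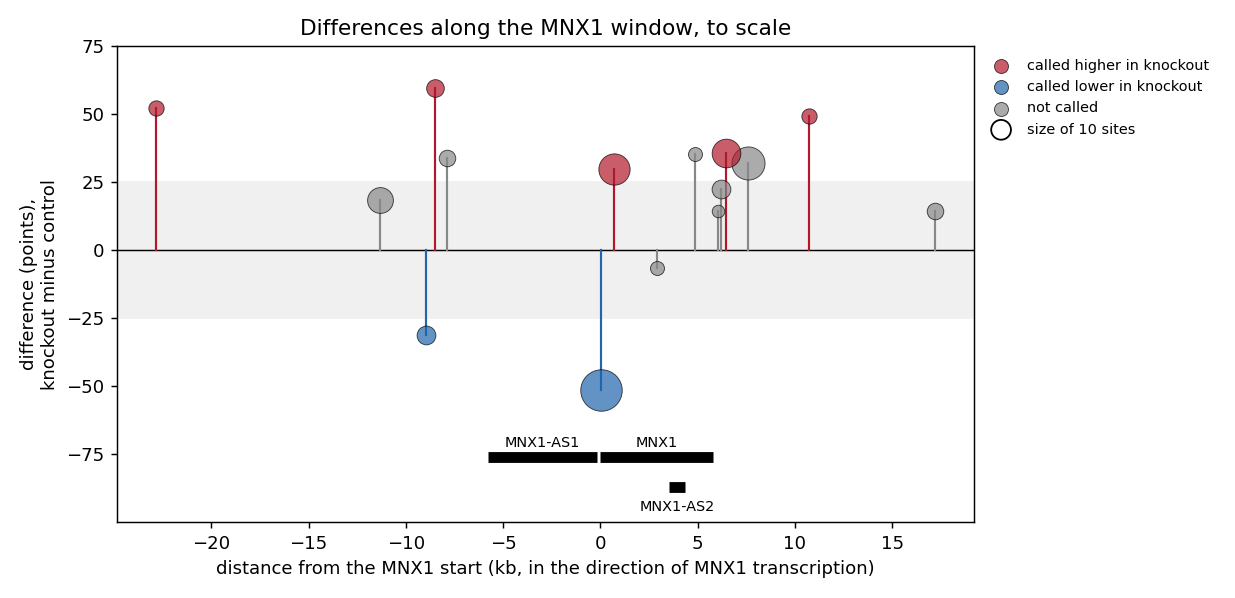
Deposited difference (knockout minus control, percentage points) of each region against its distance from the MNX1 start in kb along the direction of transcription, with circle area proportional to the number of sites and black bars for the annotated genes; the grey band marks differences under 25 points. The largest circle, at the start, lies at -51.5 points, and the called higher regions lie on both sides of it.

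The levels spread widely among the members. In the knockout they ran over regions between 2.17% and 97.4%, with 3 regions above 90% and 6 above 50%. In the control they lay between 0% and 77.0%, with 0 above 90% and 2 above 50%, and the region across the start was the highest of all. Sites were spread unevenly too: 10 regions had under 10 sites, and the start region alone held 44 of the 201. With each region weighted by its sites, the mean level was 39.1% in the knockout and 29.6% in the control (difference 9.86 points). Without the start region it was 42.9% in the knockout and 16.3% in the control (27.1 points). Over all regions of the table the same means were 30.5% in the knockout and 17.0% in the control.

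Within the gene span alone the direction of the mean depended on that weighting. The deposited differences of the 4 regions there averaged 1.68 points higher in the knockout. Weighted by sites, the level was 30.3% in the knockout and 47.8% in the control, 17.5 points lower in the knockout (-17.5). Downstream of the gene it was 42.2% in the knockout and 12.3% in the control, and upstream of the start it was 49.0% in the knockout and 26.4% in the control.

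A high control level and a large loss across a start were uncommon in the table. Regions across an annotated start of a protein-coding gene numbered 745, with medians at 13.3% in the knockout and 2.38% in the control. None of them was on chromosome 8, although the table lists regions of that chromosome, so the ranks below leave it out. Of the 745, 10.6% were called, 54 higher and 25 lower (3.36%). The MNX1 region was among the 9 with a control level of at least 77.0%, among the 5 with a difference of -51.5 points or lower, and had the lowest q of the 745. It also had the most sites of the 25 called lower, 44 against 34 for the next. The 3 called starts with a larger loss, named after their values were seen, were those of CHRNA7 (32.6% in the knockout, 96.8% in the control, 15 sites), CNKSR1 (3.70% in the knockout, 65.7% in the control, 9 sites) and CLEC2L (28.2% in the knockout, 83.2% in the control, 13 sites). The remaining start with a larger loss, RGL3, also named after its values were seen, was not called (0% in the knockout, 59.5% in the control, 8 sites). CHRNA7 encodes a subunit of the nicotinic acetylcholine receptor. Its knockout level lies in the range, described below, where knockout means pile up.

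**Figure D3:**
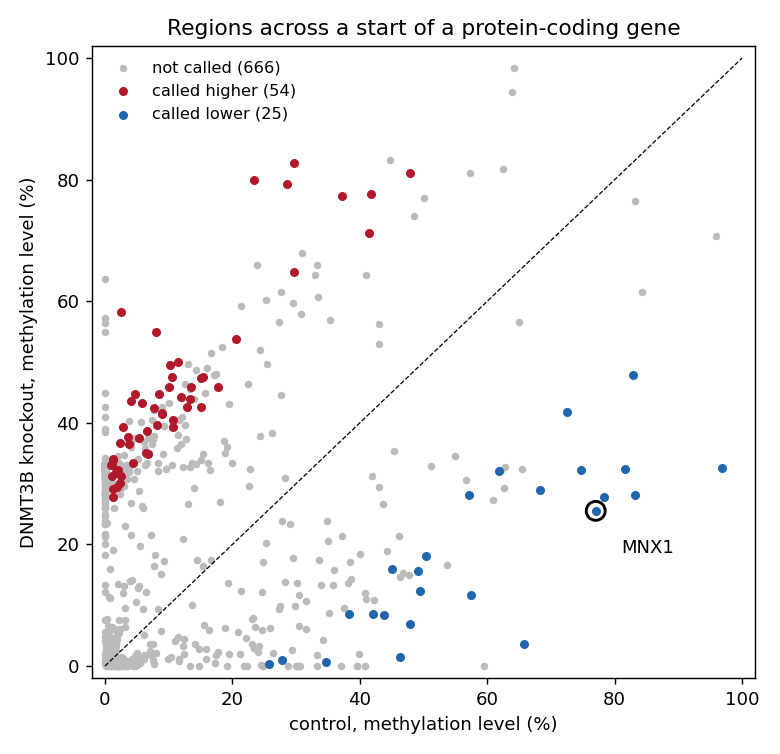
Methylation level (%) in the knockout (vertical) against the control (horizontal) for the 745 regions across a start of a protein-coding gene, coloured by call, with the MNX1 region circled and the dashed line at equal levels. MNX1 lies at 25.5% in the knockout and 77.0% in the control, in the lower right part with the 25 called lower.

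Among long regions the MNX1 start belonged to the smaller group that was called lower. The table has 75 regions with at least 44 sites, whose medians were 33.3% in the knockout and 2.39% in the control. Of these, 45 were called, 40 higher and 5 lower. The MNX1 region had the lowest q of the 75 and was the 1 with a control level of at least 77.0%. These ranks, like those among the starts above, come from the contrast that chose the locus and test nothing. Over all 35130 regions, 11 had a q of 1.4e-11 or less, MNX1 included.

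Windows of other genes, taken by the same 25 kb rule, rarely held as many called regions in both directions. Of 1283 protein-coding genes with at least 10 regions in their window, the median had 6.98% of them called, and 189 had calls of both directions. MNX1 was the 1 gene with a share of 46.7% or more. Besides MNX1 only KNDC1, named after its values were seen, had at least 2 called lower and 5 called higher, with 28 regions. This contrast chose the MNX1 locus for its number of such regions, so its place in both counts restates that choice. UNCX, a homeobox gene of the axial skeleton in mouse, had 5 called of 17 regions, 3 higher and 2 lower, with a median level of 23.9% in both groups. PTPRN2, a phosphatase-like protein gene of secretory granules, had 7 called of 78 regions, 4 higher and 3 lower. The median deposited difference was 29.7 points in the MNX1 window, 8.52 in that of UNCX, 10.2 in that of PTPRN2 and 17.4 over all regions. The largest control level among the called lower regions of UNCX was 46.4%, over 9 sites that were at 8.89% in the knockout. In PTPRN2 a 6-site called lower region was at 27.5% in the knockout, against 88.0% in the control.

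The genes whose windows were most like that of MNX1, by distance over the shares called lower and called higher, were HOXC13, HOXC12, CBX2, CBX8 and TTC6. This likeness rests on 1 pair of group means. HOXC13 and HOXC12 are neighbouring positional identity factors whose windows share 14 regions, 5 of them called, and CBX2 and CBX8 are neighbouring Polycomb protein genes whose windows share 17 regions, 6 of them called. The 6 called regions in the window of HOXC12 comprised 5 higher and 1 lower. The lower one, 16230 bases from HOXC12 and 158 bases from HOXC13, was at 13.3% in the knockout and 54.4% in the control over 5 sites. The largest loss near CBX2 was at 4.81% in the knockout and 47.6% in the control over 13 sites. TTC6 had 5 called higher regions of 15 and 0 called lower. None of the called lower regions of these genes had a control level as high as the 77.0% at the MNX1 start.

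Genes of motor neuron and pancreas development, the settings in which MNX1 acts, had called regions of both directions in about equal number. Of 32 listed genes, all measured, 18 had a called region. The share of all genes with a called region was not counted, so this count has no base to be read against. Their windows held 31 called of 215 regions (14.4% against 6.74% of all), 16 higher and 15 lower. Higher ones thus made up 51.6% of the called regions, against 67.8% of those called over all regions. This gap was not tested. At 40 points or more, 10 regions were called (4.65% against 3.42% of all). The median difference was 16.1 points against 17.4 over all regions. In MAFA, an insulin gene activator of beta cells, 23 sites were at 5.69% in the knockout and 35.4% in the control (q = 1.7e-06 in the authors' deposited table). In GATA6, an endoderm and heart factor, 7 sites were at 43.5% in the knockout and 17.4% in the control (q = 2.41e-06). In ISL2, a motor neuron LIM homeobox gene, 12 sites were at 50.9% in the knockout and 11.8% in the control (q = 6.52e-06).

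Homeobox genes related to MNX1 also held called regions of both directions. Of 14 listed genes 13 were measured, and 10 of them had a called region (share of all genes not counted). Their windows held 20 called of 103 regions (19.4% against 6.74% of all), 15 higher and 5 lower, with a median difference of 18.3 points. Of the called regions 75% were higher, against 67.8% of those called over the whole table. GBX1, on the same chromosome arm, had 5 sites at 91.2% in the knockout and 13.9% in the control (q = 5.62e-05 in the authors' deposited table), 206 bases from the gene. GBX2, a hindbrain patterning gene, had 5 sites at 36.3% in the knockout and 8.22% in the control (q = 8.28e-06). EVX2, next to the HOXD cluster, had 18 sites at 3.70% in the knockout and 43.4% in the control (q = 0.000538), 16089 bases from the gene.

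Along distal 7q the share of regions called by the main rule was near that of the whole table. Of 15 listed genes, 5 had a called region (share of all genes not counted). The windows of the 15 genes held 12 called of 157 regions (7.64%), 9 higher and 3 lower. PTPRN2 alone supplied 78 of these regions and 7 of the called ones, including all 3 called lower. At 40 points or more, 8 regions of the list were called (5.1% against 3.42% of all). In SHH, the sonic hedgehog ligand gene, 8 sites were at 92.5% in the knockout and 46.7% in the control (q = 4.61e-08 in the authors' deposited table). In PTPRN2 18 sites were at 98.1% in the knockout and 49.9% in the control (q = 5.88e-08). In VIPR2, a receptor gene for vasoactive intestinal peptide, 22 sites were at 70.4% in the knockout and 24.9% in the control (q = 6.22e-05). NOM1, named after its values were seen, whose window shares 1 uncalled region with that of MNX1, had 1 called of 4 regions, the one just outside the MNX1 window given above.

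**Figure D4:**
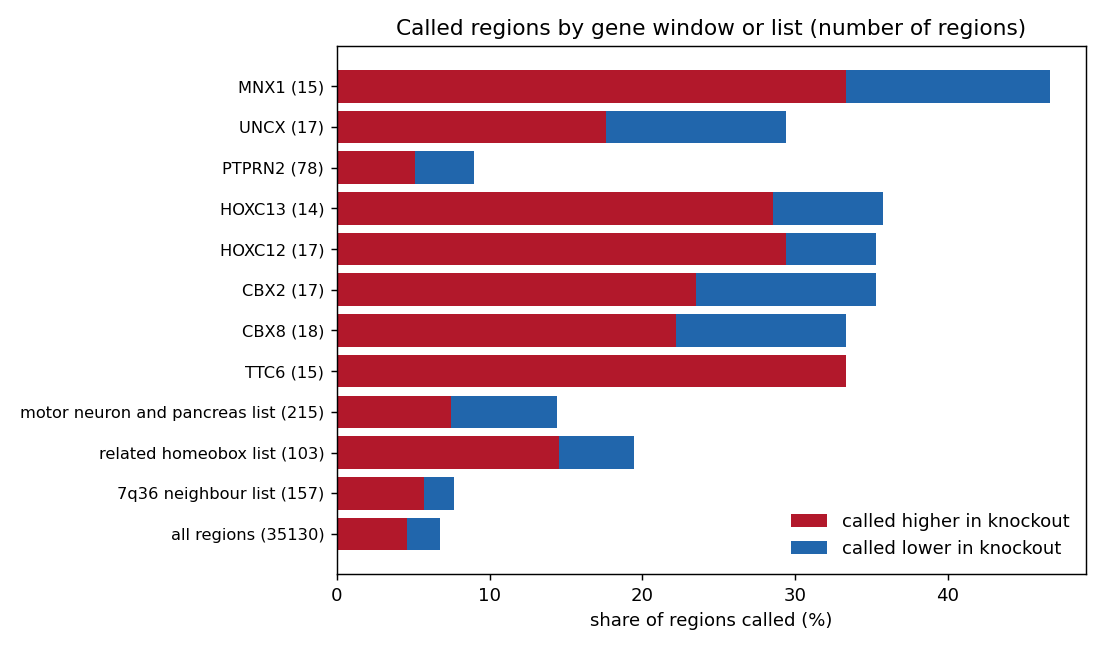
Share of regions (%) called higher (red) and called lower (blue) in the knockout, in the windows of MNX1, of UNCX and PTPRN2 and of the 5 genes most like MNX1, in 3 gene lists and over all regions, with the number of regions in parentheses. MNX1 has 46.7% called, PTPRN2 8.97% and all regions 6.74%.

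The table's group means pile up just below 33.3%, and this touches the locus. The knockout mean lay between 30% and 33.3% in 23.8% of all regions and in 4 of the 15, among them the called 25-site region inside the gene at 31.0%. Between 33.3% and 36.7% it lay in 2.32% of all regions and in 0 of the 15. A control mean of exactly 0 together with such a knockout mean was seen in 17.2% of all regions, of which 0 were called. It was seen in 1 of the 15, the 28-site region. Among the 745 start regions above, none with a group mean of exactly 0 was called. This held whatever their size, as for 50 sites at 40.9% in the knockout and 0% in the control. A control mean of exactly 0 was seen in 26.1% of all regions, and the shares called were not adjusted for this. The part of this pile-up in the differences was not tested. The knockout mean across the start, 25.5%, lies outside that range.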

How the data were processed

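Per the labels, MspI fragments of DNA from 6 M07e libraries received methylated adapters and were bisulfite-converted and amplified. Bismark, HISAT2, methylKit, Trimmomatic, FastQC and hg38 appear in the submitters' processing notes, without versions or roles; what made the region table is not given in these sources. The authors deposited, per region, group means in percent, a difference score in points, a count of sites, and p-values (Mann-Whitney and 2-dimensional Kolmogorov-Smirnov) and a q-value, all per the file headers. The table has 1 mean per group, so neither depth nor library spread is known, no value has a replicate error, and the authors' p-values may measure sites rather than libraries.

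Positions were checked against RefSeq promoter sequences of the same build. A CpG cytosine stood 2 bases above the listed start in all 3159 regions whose start could be checked (1 base above in 1605), and 1 base above the listed end in all 3119. Printed positions are therefore these first and last cytosines, 1-based. Sites never outnumbered the CpG cytosines of both strands (2551 of 2551 regions) but outnumbered CpG pairs in 1930.

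The members and gene lists were chosen with earlier results of these data known. Genes were named by rule: those overlapping the window, up to 3 per list by lowest q, UNCX and PTPRN2, and the 5 most like MNX1; others are marked. Windows and Benjamini-Hochberg adjustment were tested on simulated data. Python 3.11.15, pandas 2.3.3, numpy 2.4.6 and SciPy 1.17.1 were used. Alternatives covered thresholds, adjustment, window, sites and weighting.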

Additional observations from a re-analysis of the deposited data

How the results depend on the processing

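No paired analysis was possible because the deposited table has 1 mean per group, and for the same reason no replicate could be left out. Of the 7 called regions, 3 kept the call under all 6 other call rules: the start region, the 6-site region downstream and the 8-site region upstream. The count of 7 became 4 at a difference of at least 40 points, 3 at q under 0.001, 3 with Benjamini-Hochberg adjustment of the Kolmogorov-Smirnov p over all regions (4.12% of all called), 3 among regions of at least 10 sites, and 2 in the gene span only. The other alternatives gave 6 to 8, including 6 without means between 30% and 33.3%, chosen after seeing the data. The share of regions higher in the knockout by the deposited difference was 80.0% (exact 95% binomial interval over regions 51.9 to 95.7) and 50% in the gene span. It was 70.6% with 50 kb on each side, 71.1% weighted by sites and 72.7% without means between 30% and 33.3%. The remaining alternatives gave 75% to 80%. The binomial interval treats neighbouring regions of a locus chosen on this contrast as independent and measures no spread among libraries. It therefore cannot test the share against the 68.4% of all regions. The mean difference of 20.5 points became 9.86 weighted by sites, 12.9 among regions of at least 10 sites and, in the gene span, 1.68; a move past 1.5 times was counted, as no replicate spread exists. At 40 points the motor neuron and pancreas list held 10 called regions (4.65%, nearer to the 3.42% of all regions than at the main threshold) and the related homeobox list 7 (6.8%). With the adjusted Kolmogorov-Smirnov p (4.12% of all) the related homeobox list held 10 (9.71%) and the 7q36 list 6 (3.82%). Except for fewer regions entering, the cause was not tested. Unknown depth limits every level.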
